A study of Chlorocebus aethiops with 24 samples.

Results

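Solute carriers were represented by 144 of the 11512 probe sets measured in the hippocampus of vervet monkeys, and none of them passed an adjusted p under 0.05 for prenatal alcohol, for age or for the interaction of both. A probe set was counted when the platform annotation gave it 1 gene symbol of the form SLC followed by a family number, and the 144 probe sets carried 139 symbols in 40 families. The carriers nearest to a difference with alcohol were SLC5A11, a sodium-coupled myo-inositol carrier, and SLC45A3, a carrier of the sugar group, which were both higher in exposed animals at both ages. Those nearest to an age difference were SLC5A11 again and 2 members of the monocarboxylate family, SLC16A4, which was higher at 2 years, and SLC16A1, which was lower. The mitochondrial family carrier SLC25A17 had the lowest p for a difference between the ages in its response to alcohol.

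Total RNA came from the left hippocampus of 22 captive-bred male vervets, with 1 array per animal. The dams were chosen for drinking alcohol freely, and late in pregnancy they drank either ethanol or a sucrose solution of equal calories. Their offspring make up the fetal alcohol spectrum disorder (FASD) groups and the control groups, which were sampled at 5 months (6 control and 5 FASD animals) and at 2 years (6 control and 5 FASD animals). All groups were offspring of alcohol-preferring dams, some dams could contribute to both exposures, and vervet RNA was hybridised to arrays designed for the rhesus macaque, so a level depends also on how well the macaque probes match the vervet sequence. The values are log2 expression intensities, on which a difference of 1 is a factor of 2, and levels of different probe sets are not compared here.

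Solute carriers are membrane proteins that move ions, sugars, amino acids, nucleotides, metals and metabolites across cell membranes and organelle membranes, and family numbers group them by sequence. In the hippocampus, carriers of astrocytes and neurons clear transmitters from the synapse, vesicular carriers load transmitters into vesicles, bicarbonate and chloride carriers set intracellular pH and the direction of inhibitory currents, and glucose and monocarboxylate carriers bring in fuel. The largest families measured here were SLC25, of mitochondrial carriers, with 27 probe sets, and SLC35, of nucleotide sugar carriers, with 15. SLC2 followed with 7, and SLC4, SLC7 and SLC30 each had 6. Only 11 of 25 well-known brain carriers chosen for description had a probe set here, and the main glutamate carrier of astrocytes SLC1A2, the vesicular glutamate carrier SLC17A7 and the vesicular GABA carrier SLC32A1 were not analysed here. SLC7A6OS met the naming rule although it is named for lying opposite SLC7A6 and is not known as a carrier.

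Some arrays stood apart, and some of the results that rest on them are given with and without them. Pairs of arrays, 231 in all, had a Pearson's r of 0.972 to 0.995 over all probe sets. FASD animal 2 at 5 months, control animal 2 at 2 years and FASD animal 2 at 2 years had the lowest array weights, at 0.273, 0.379 and 0.413, and the lowest levels of the pyramidal neuron marker NEUROD6, at 9.13, 9.32 and 9.07 against 9.84 to 10.45 in the other 19 animals. NRGN, the other pyramidal neuron marker measured, was 11.02, 10.98 and 10.81 in these animals, above its mean of 10.75 over all animals. Control animal 2 at 2 years was the animal farthest from its group's mean for 33 of the 144 carriers. FASD animal 4 at 2 years had a SOX4 level of 10.29, above every 5-month animal (9.86 to 10.26) and every other 2-year animal (9.18 to 9.56). Control animal 6 at 5 months carries labels of both ages and was placed at 5 months by its title. The part of these arrays in the results was not tested beyond leaving them out. In bulk tissue, fewer cells of a type and less RNA per cell cannot be told apart.

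For alcohol, 13 of the 144 carriers (9.03%) had an unadjusted p under 0.05 in limma, against 8.44% of all probe sets. Of these, 5 were higher in FASD animals (2.43% of all probe sets were) and 8 were lower (6.01% of all). The split was 6 and 6 when the arrays were centred on their medians and 7 and 7 after quantile normalization. The median difference was -0.01 over the carriers and -0.01 over all probe sets, and 142 of the carriers differed by less than 0.25. The 95% interval of the difference lay wholly between -0.25 and 0.25 for 94 carriers and between -0.5 and 0.5 for 141. For age, 14 carriers (9.72%) passed the same threshold, against 9.57% of all probe sets, 9 of them higher at 2 years (4.68% of all were) and 5 lower (4.89% of all). The shares of the carriers were near the background for both factors. After adjustment over all probe sets, 0 carriers were called by limma, or by the two-way analysis of variance of the methods, for alcohol (0% of all), age (0.139% of all) or the interaction (0% of all), and the lowest adjusted p of a carrier was 0.579 for alcohol and 0.104 for age.

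**Figure D1:**
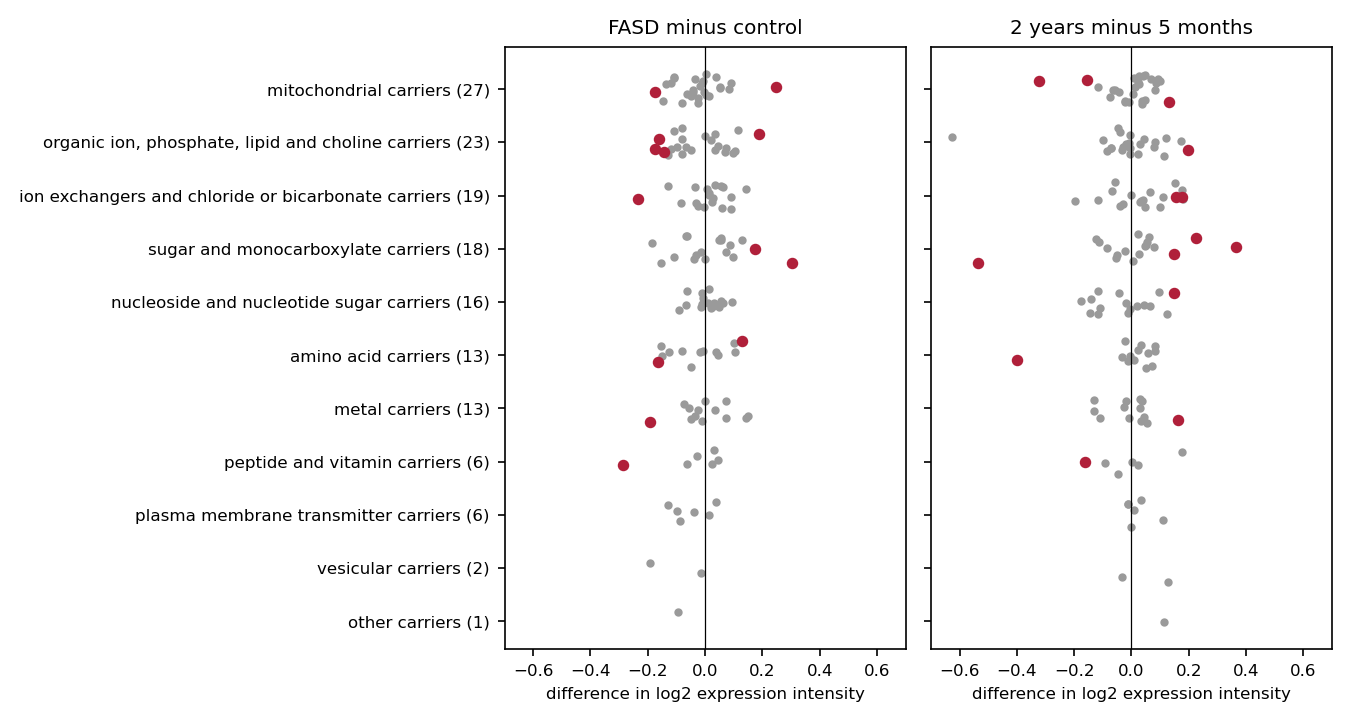
Difference in log2 expression intensity for each of the 144 solute carrier probe sets, FASD minus control on the left and 2 years minus 5 months on the right. There is 1 row per role, assigned by family number alone, with the number of probe sets in brackets. Red points have an unadjusted p under 0.05 (13 for alcohol, 14 for age), and in both panels they lie on both sides of 0; the widest spread for age, from -0.53 to 0.36 among red points, is that of the sugar and monocarboxylate carriers.

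Among the 18 sugar and monocarboxylate carriers, 2 were higher with alcohol and 0 lower at an unadjusted p under 0.05, and 3 were higher and 1 lower at 2 years. SLC5A11, known as SMIT2, brings myo-inositol, an osmolyte and the precursor of phosphoinositides, into cells with sodium. Its level was 7.22 to 7.75 (median 7.63) in 5-month controls and 8.10, 7.75, 7.78, 7.78 and 7.85 in 5-month FASD animals. At 2 years it was 7.65 to 8.47 (median 7.79) in controls and 8.42, 8.11, 8.28, 8.17 and 8.16 in FASD animals. At 5 months 4 of the 5 FASD animals lay above every control. At 2 years control animal 2, at 8.47, lay above every FASD animal, the next control, at 8.14, lay above the lowest FASD animal, and the other 4 controls lay below all of them. The difference with alcohol was 0.30 ± 0.09 (SE, n = 22 animals, limma p = 0.00253, adjusted p = 0.579), and the exact permutation test gave a two-sided p of 0.0044. With age it was 0.36 ± 0.09 (limma p = 0.000472, adjusted p = 0.104, exact permutation p = 0.000352), with 0.36 in controls and 0.37 in FASD animals. All 5 FASD animals at 2 years lay above all 5 at 5 months. The adjusted p for age was 0.0171 with array weights and 0.0467 without the 3 arrays of lowest weight, within a range of 0.0171 to 0.233 over 31 alternatives, and the difference itself stayed between 0.31 and 0.40.

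SLC45A3, a member of a family of proton-coupled sugar carriers, was 6.72 to 7.04 (median 6.80) in 5-month controls and 7.07, 7.02, 7.08, 6.90 and 7.08 in 5-month FASD animals. In the older animals it was 6.61 to 7.05 (median 6.77) in controls and 6.99, 6.93, 6.77, 7.14 and 7.01 in FASD animals. The groups overlapped at both ages, with every 5-month FASD animal and 4 of the 2-year ones above the control median of their age. The difference was 0.17 ± 0.06 (SE, n = 22, limma p = 0.00482, adjusted p = 0.579, exact permutation p = 0.00454), and it was 0.18 at 5 months and 0.16 at 2 years. SLC5A11 and SLC45A3 were the only carriers with an unadjusted limma p under 0.05 and the same direction at both ages, or 1.39% of the carriers against 0.304% of all probe sets. The exact permutation test gave p values of 0.0108 and 0.0325 for them at 5 months, but 0.0736 and 0.0931 at 2 years. Averaged over the ages, both carriers kept an unadjusted p under 0.05 for alcohol in all 31 alternatives run on them.

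Some markers of the oligodendrocyte lineage differed with alcohol beside these carriers. Of 7 oligodendrocyte markers 3 were measured, with MAL at 0.24 (n = 22, limma p = 0.0262, adjusted p = 0.580), MBP at 0.15 and CNP at -0.08. The MBP value averages 0.57 at 5 months and -0.26 at 2 years, and that of MAL averages 0.42 and 0.06. Of 5 markers of oligodendrocyte precursors 3 were measured and all were above 0, with a median of 0.22 and GPR17 at 0.49 (n = 22, limma p = 0.00443, adjusted p = 0.579). The summed level of the precursor markers was 8.59 to 8.83 in 5-month controls and 8.97 to 9.07 in 5-month FASD animals, and 8.28 to 8.91 and 8.37 to 9.13 at 2 years. With age MAL, GPR17 and OLIG2 differed by -0.34, -0.49 and -0.19, MBP by -0.08, CNP by 0.04 and CSPG4 by 0.02, beside 0.36 for SLC5A11. The defining markers MOG and PDGFRA were not analysed here, and the part of these cells in the carriers' differences was not tested.

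**Figure D2:**
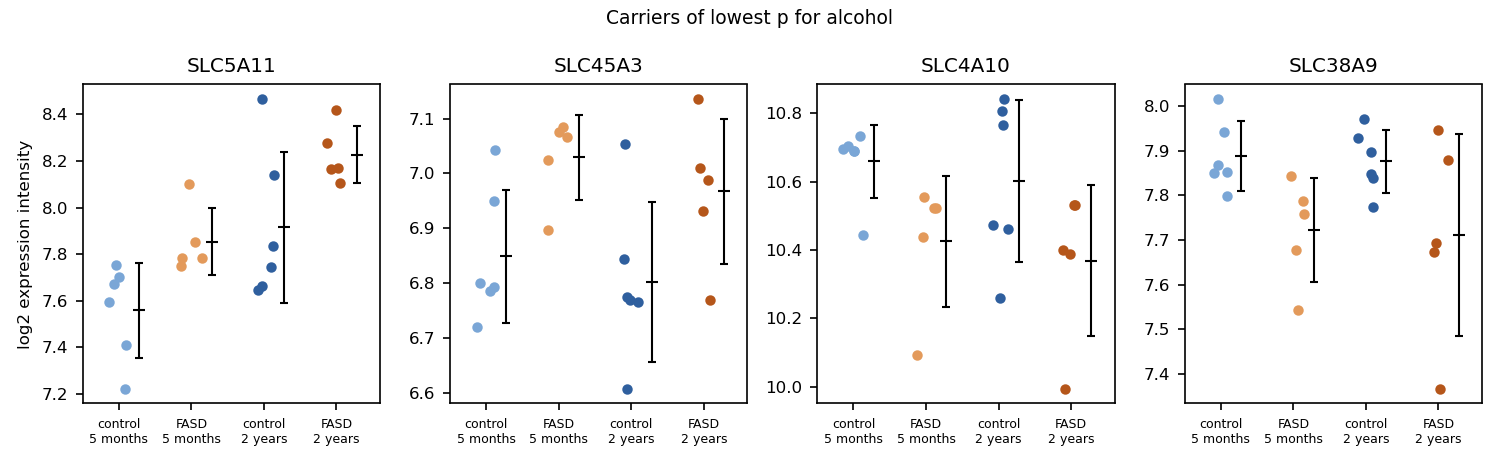
Log2 expression intensity of the 4 carriers of lowest p for alcohol, with 1 point per animal, 4 groups per panel, and the mean with SD bars beside each group; each panel has its own axis, which does not start at 0. SLC5A11 and SLC45A3 are higher and SLC4A10 and SLC38A9 are lower on average in FASD than in control animals at both ages, and all 4 panels show overlap between exposures.

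Of the 4 monocarboxylate carriers of the SLC16 family, SLC16A1 and SLC16A4 had an unadjusted p under 0.05 for age, and none had for alcohol. SLC16A1, or MCT1, exchanges lactate, pyruvate and ketone bodies with protons and supplies the young brain with ketone bodies. It was 7.73 to 9.0 (median 8.11) in 5-month controls and 7.95, 8.51, 8.20, 8.64 and 8.34 in 5-month FASD animals. At 2 years it was 7.44 to 7.94 (median 7.69) in controls and 7.62, 7.22, 7.26, 8.91 and 7.53 in FASD animals, where the value of 8.91 belongs to animal 4. Apart from that animal the 2-year FASD animals lay below all 5-month FASD animals. The age difference was -0.53 ± 0.17 (SE, n = 22, limma p = 0.00417, adjusted p = 0.25, exact permutation p = 0.0113). Without FASD animal 4 at 2 years it was -0.68 ± 0.12 with a limma adjusted p of 0.00655, and without the 2 arrays whose age is in doubt it was -0.69 ± 0.13 with a limma adjusted p of 0.0112, within a range of 0.00655 to 0.414 over 31 alternatives. FASD animal 4 was doubted for its expression levels alone and not for its label. Leaving it out therefore favours an age difference, and these fits are no independent support for one. Markers of immature neurons differed the same way with age: DCX, SOX11 and SOX4 were all lower, at -0.37, -0.61 and -0.62, and SOX4 had a limma adjusted p of 0.00556. The summed level of these 3 of 4 markers was 10.83 to 11.23 at 5 months and 10.27 to 10.68 at 2 years except in FASD animal 4, where it was 11.31. Both endothelial markers measured, CLDN5 and PECAM1, differed by -0.02 and 0.08 with age. Single markers of other lists were also lower at an unadjusted limma p under 0.05. They were NRGN (1 of 2 of pyramidal neurons) at -0.21, MAL (1 of 3 of oligodendrocytes) at -0.34, GPR17 (1 of 3 of their precursors) at -0.49 and C1QA (1 of 4 of microglia) at -0.36. The part of any of these cells in the SLC16A1 difference was not tested.

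SLC16A4, a monocarboxylate family member without a settled substrate, was 5.76 to 6.12 (median 5.87) in 5-month controls and 5.82 to 6.31 (median 6.10) in 2-year controls. In FASD animals it was 5.95, 5.88, 5.73, 5.65 and 6.00 at 5 months and 6.17, 6.00, 6.01, 6.03 and 6.25 at 2 years, with every 2-year FASD animal above every 5-month one. The difference of 0.23 ± 0.06 (SE, n = 22, limma p = 0.00191, adjusted p = 0.196, exact permutation p = 0.00201) was seen in both exposures, at 0.20 in controls and 0.25 in FASD animals. Its adjusted p was 0.0301 with array weights, within 0.0301 to 0.341 over 31 alternatives. SLC5A11 and SLC16A4 were the 2 carriers with an unadjusted limma p under 0.05 for age and the same direction in both exposures (1.39%, against 0.895% of all probe sets). The exact permutation test gave p values of 0.0368 and 0.0649 for them in controls, and 0.00794 for each in FASD animals.

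The fuel carriers of the blood-brain barrier and of neurons showed less. SLC2A1, or GLUT1, which carries glucose across the endothelium and into astrocytes, differed by 0.10 with alcohol (95% interval -0.10 to 0.30) and 0.05 with age (-0.15 to 0.25). SLC2A3, or GLUT3, the neuronal glucose carrier, was 0.15 higher at 2 years (95% interval 0.02 to 0.28, n = 22, limma p = 0.0269, adjusted p = 0.431), with 0.23 in FASD animals and 0.06 in controls. For the neuronal lactate carrier SLC16A7, or MCT2, the alcohol difference was -0.15 (95% interval -0.32 to 0.01). SLC5A3, the close relative of SLC5A11 known as SMIT1, differed by -0.03 with alcohol (-0.27 to 0.21) and -0.02 with age (-0.26 to 0.22). The alcohol value averages 0.14 at 5 months and -0.21 at 2 years, and the age value 0.16 in controls and -0.20 in FASD animals. The averaged differences of SLC5A11 were thus not met in the other myo-inositol carrier of the SLC5 family measured.

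The 19 ion exchangers and chloride or bicarbonate carriers held 1 carrier lower with alcohol and 2 higher with age at an unadjusted p under 0.05. SLC4A10 brings bicarbonate into neurons with sodium and so buffers their acid load. Its level was 10.44 to 10.73 (median 10.69) in 5-month controls and 10.09, 10.52, 10.44, 10.52 and 10.56 in 5-month FASD animals. In the older animals it was 10.26 to 10.84 (median 10.62) in controls and 10.39, 9.99, 10.53, 10.40 and 10.53 in FASD animals. The lowest FASD value at each age was that of animal 2, 1 of the 3 animals with low NEUROD6. NRGN, the other pyramidal neuron marker measured, was not low in these 3 animals. At 5 months all FASD animals lay below every control except the lowest control, animal 6. The difference was -0.23 ± 0.08 (SE, n = 22, limma p = 0.00778, adjusted p = 0.579, exact permutation p = 0.00846), with -0.23 at each age, and it was between -0.27 and -0.18 in 32 alternatives. The related SLC4A7 had 2 probe sets, with alcohol differences of -0.09 and -0.03, and neither had an unadjusted p under 0.05.

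SLC12A5, or KCC2, exports chloride from mature neurons and makes GABA inhibitory. In FASD animals it was 10.90, 11.43, 11.40, 11.44 and 11.40 at 5 months and 11.47, 11.64, 11.63, 11.45 and 11.62 at 2 years, so that all 2-year values lay above all 5-month values. In controls the levels of 11.18 to 11.63 (median 11.41) at 5 months and 11.20 to 11.59 (median 11.52) at 2 years overlapped. The age difference over both exposures was 0.16 ± 0.07 (SE, n = 22, limma p = 0.0392, adjusted p = 0.481), the interaction of 0.19 had a 95% interval of -0.11 to 0.49, and 15 of 32 alternatives took the age p to 0.05 or above. SLC4A11, a proton-permeable relative of the bicarbonate carriers, was 0.18 ± 0.06 higher at 2 years (limma p = 0.0126, adjusted p = 0.356, exact permutation p = 0.0157), with 0.09 in controls and 0.26 in FASD animals.

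Of the 13 amino acid carriers, 1 was higher and 1 lower with alcohol, and 1 was lower at 2 years. SLC38A9 sits in the lysosome membrane, where it senses arginine for the growth regulator mTORC1. It was 7.80 to 8.02 (median 7.86) in 5-month controls and 7.84, 7.54, 7.68, 7.79 and 7.76 in 5-month FASD animals. At 2 years it was 7.77 to 7.97 (median 7.87) in controls and 7.37, 7.95, 7.88, 7.67 and 7.69 in FASD animals. Every 5-month FASD animal and 3 of the 2-year ones lay below the control median of their age. The difference was -0.17 ± 0.06 (SE, n = 22, limma p = 0.0093, adjusted p = 0.579, exact permutation p = 0.00384), with -0.17 at 5 months and -0.16 at 2 years, and its unadjusted p stayed under 0.05 in all 31 alternatives.

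SLC38A10, a relative of the neuronal and glial glutamine carriers, was 0.13 ± 0.06 higher with alcohol (limma p = 0.0432, adjusted p = 0.590, exact permutation p = 0.0393), and 16 of 32 alternatives took its p to 0.05 or above. SLC38A11, a less studied relative, had an age difference of -0.40 ± 0.16 (limma p = 0.0182, adjusted p = 0.388, exact permutation p = 0.0262), from a range of 4.96 to 6.38 to a range of 4.65 to 5.58 in controls and from 4.99 to 5.87 to 4.61 to 5.47 in FASD animals. The cystine and glutamate exchanger SLC7A11 differed by -0.13 with alcohol (95% interval -0.31 to 0.05). The arginine carrier SLC7A1 differed by -0.05 (-0.16 to 0.07).

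Of the 27 probe sets of the SLC25 family, 1 was higher and 1 lower with alcohol, and 1 was higher and 2 lower at 2 years. SLC25A17 belongs to this family by sequence but lies in the peroxisome membrane, where it moves coenzyme A and related cofactors. In 5-month controls it was 9.41 to 9.85 (median 9.52), and in 5-month FASD animals it was 10.76, 10.25, 9.76, 10.07 and 9.96. In the older animals it was 8.93 to 9.83 (median 9.72) in controls and 9.47, 9.81, 9.47, 9.49 and 9.26 in FASD animals. At 5 months 4 of the 5 FASD animals lay above every control, while at 2 years the FASD range lay inside the control range. The FASD difference was 0.58 ± 0.16 (SE) at 5 months (limma p = 0.00139, exact permutation p = 0.00649) and -0.09 ± 0.16 at 2 years, and the interaction was -0.67 ± 0.23 (n = 22, limma p = 0.00699, adjusted p = 0.9997). In FASD animals the age difference was -0.66 ± 0.17 (limma p = 0.000673, exact permutation p = 0.0159), against 0.01 ± 0.15 in controls. The oligodendrocyte marker MBP, part of the myelin sheath, had an interaction in the same direction, of -0.82 ± 0.23 (n = 22, limma p = 0.0018, adjusted p = 0.9997). Its level in 5-month FASD animals was 12.93, 12.57, 11.85, 12.32 and 12.15, against 11.47 to 12.06 in 5-month controls. The order of animals was that of SLC25A17 in this FASD group but in no other group. In 5-month controls animal 3 was lowest for MBP, at 11.47, but above the median for SLC25A17, at 9.73. MAL in 5-month FASD animals placed animal 4, at 9.43, above animal 6, at 9.27, unlike SLC25A17. The interactions of MAL and CNP, the other 2 of the 7 oligodendrocyte markers measured, were -0.36 and -0.03. The summed level of the 3 was 12.61 to 12.95 in controls and 12.82 to 13.49 in FASD animals at 5 months, and 12.79 to 13.26 and 12.52 to 13.08 at 2 years. The part of these cells in the SLC25A17 values was not tested.

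SLC25A17 was the only carrier with an unadjusted p under 0.05 for the interaction, or 0.694% of the carriers against 3% of all probe sets. Its interaction was between -0.80 and -0.52 in 32 alternatives and kept an unadjusted p under 0.05 in each, and its adjusted p was 0.736 or above in each. The 4 carriers next in order for the interaction had limma p values of 0.0701 to 0.0829. They were the zinc carrier SLC30A2 at -0.18, 1 of 2 probe sets of SLC35B1 at 0.18, the zinc carrier SLC39A11 at 0.25 and the fatty acid carrier SLC27A2 at 0.37. The lowest SLC27A2 levels in 5-month FASD animals were 3.48 and 3.92, a weak signal.

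SLC25A36 carries pyrimidine nucleotides into mitochondria, where they serve the copying of mitochondrial DNA. It was 10.75 to 10.85 (median 10.81) in 5-month controls and 10.57 to 10.82 (median 10.67) in 2-year controls, and in FASD animals it was 10.82, 10.79, 10.91, 10.86 and 10.81 at 5 months and 10.69, 10.38, 10.55, 10.85 and 10.78 at 2 years. The 5-month animals of both exposures lay between 10.75 and 10.91, and the 2-year animals were spread below and into that range. The age difference was -0.16 ± 0.05 (SE, n = 22, limma p = 0.00493, adjusted p = 0.258, exact permutation p = 0.00136). The mitochondrial glycine carrier SLC25A38 was 0.13 ± 0.05 higher at 2 years (n = 22, limma p = 0.024, adjusted p = 0.420). SLC25A27, an uncoupling protein of neurons also called UCP4, had an alcohol difference of -0.17 ± 0.07 (limma p = 0.0216, adjusted p = 0.579, exact permutation p = 0.0246), with -0.23 at 5 months and -0.12 at 2 years. The ADP and ATP exchangers SLC25A4 and SLC25A5 had alcohol differences of -0.01 and 0.00, with 95% intervals of -0.14 to 0.12 and -0.10 to 0.09.

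**Figure D3:**
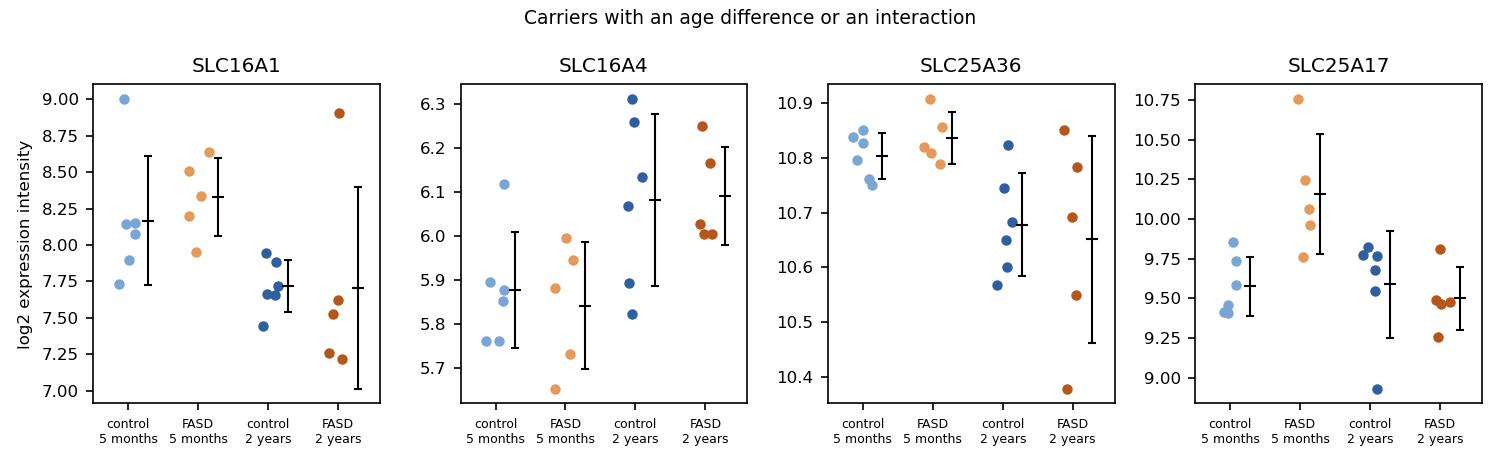
Log2 expression intensity of 4 carriers with an age difference or an interaction, with 1 point per animal, 4 groups per panel, and the mean with SD bars beside each group; each panel has its own axis, which does not start at 0. SLC16A1 is lower at 2 years except for 1 FASD animal at 8.91, SLC16A4 is higher and SLC25A36 lower at 2 years, and SLC25A17 has its highest values in the 5-month FASD group, at 9.76 to 10.76.

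Of the 23 carriers of organic ions, phosphate, lipids and choline, 1 was higher and 3 lower with alcohol, and 1 was higher at 2 years. SLC10A7, an orphan member of the bile acid carrier family that is needed for skeletal growth, had a difference with alcohol of -0.17 ± 0.07 (limma p = 0.0181, adjusted p = 0.579, exact permutation p = 0.0178), with group means of 4.12 ± 0.19 (SD, n = 6) and 3.92 ± 0.16 (n = 5) at 5 months and 4.09 ± 0.10 (n = 6) and 3.94 ± 0.19 (n = 5) at 2 years. The level of SLC10A7 was only 3.62 to 4.34 over all animals, a weak signal. The dicarboxylate carrier SLC13A2, which takes up citrate and succinate with sodium, had a difference of -0.16 ± 0.06 (limma p = 0.0215, adjusted p = 0.579, exact permutation p = 0.0278), with -0.07 at 5 months and -0.25 at 2 years. Of the further carriers in this role, named after their values were seen, the fatty acid carrier SLC27A4 differed by 0.19 ± 0.09 with alcohol (n = 22, limma p = 0.048, adjusted p = 0.590). The phosphosugar carrier SLC37A3 differed by -0.14 ± 0.07 (n = 22, limma p = 0.0472, adjusted p = 0.590) and the phosphate carrier SLC20A2 by 0.20 ± 0.09 with age (n = 22, limma p = 0.0424, adjusted p = 0.488). These 3 lost an unadjusted p under 0.05 in 17, 19 and 14 of their 31 alternatives.

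SLC13A4, a sulfate carrier of the choroid plexus and meninges, varied most between animals of 1 group among all carriers, with a residual SD of 0.90 against a median of 0.17 over the carriers and 0.16 over all probe sets. It was also chosen after its values were seen. It ranged from 7.11 to 10.19 (median 7.53) in 5-month controls and was 8.46, 9.21, 8.23, 8.66 and 7.37 in 5-month FASD animals. At 2 years it was 6.82 to 8.53 (median 7.76) in controls and 7.25, 7.72, 6.34, 6.81 and 8.87 in FASD animals. The age difference of -0.63 was the largest of any carrier, yet its SE was 0.35 and its 95% interval ran from -1.34 to 0.09. The highest value, 10.19, was that of control animal 6 at 5 months, which also had the highest level of the choroid plexus marker FOLR1, at 9.56. FASD animals 3, 4 and 5 at 5 months and control animal 2 at 2 years had FOLR1 levels of 8.98, 8.07, 8.06 and 8.21, the other 17 animals had 6.96 to 7.52, and these 5 animals with high FOLR1 all had SLC13A4 levels of 8.23 or above. The other choroid plexus marker measured, AQP1, was 9.69, 9.52, 9.89, 9.75 and 9.48 in control animal 6, FASD animals 3, 4 and 5 and the 2-year control, within the range of 9.18 to 9.97 of the other 17 animals. FASD animal 2 at 5 months and FASD animal 6 at 2 years had SLC13A4 levels of 8.46 and 8.87 with FOLR1 levels of 7.12 and 7.36. They lay highest above the mean of the animals, by 1.02 and 0.59, over 4 of 8 markers of mural cells and meningeal fibroblasts. Control animal 4 at 2 years and control animal 1 at 5 months followed at 0.53 and 0.48, with SLC13A4 at 7.94 and 7.45. Only FOLR1 and AQP1 of 8 choroid plexus markers were measured. How much choroid plexus or meninges each piece of tissue held was not tested.

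**Figure D4:**
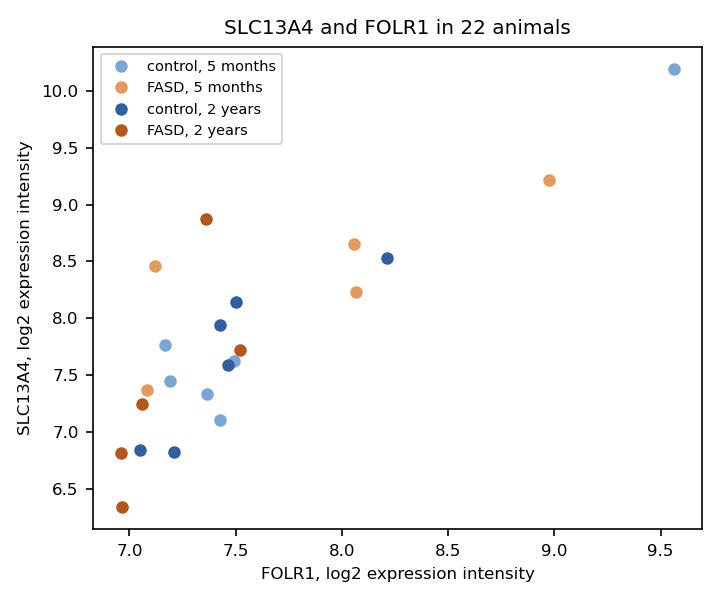
Log2 expression intensity of the sulfate carrier SLC13A4 (vertical axis) against that of the choroid plexus marker FOLR1 (horizontal axis), with 1 point per animal coloured by group. The 5 animals with FOLR1 between 8.06 and 9.56 lie at SLC13A4 levels of 8.23 to 10.19, while animals with FOLR1 of 7.52 or below span 6.34 to 8.87.

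Among the 6 peptide and vitamin carriers, SLC15A4 was lower with alcohol. It carries histidine and small peptides out of lysosomes and takes part in the signals of toll-like receptors. Its level was 7.78 to 8.63 (median 8.09) in 5-month controls and 7.90, 7.92, 7.90, 8.24 and 7.94 in 5-month FASD animals, and 7.81 to 8.48 (median 8.17) in 2-year controls and 7.52, 8.02, 7.59, 7.84 and 7.92 in 2-year FASD animals. The FASD animals lay inside the control range at 5 months and partly below it at 2 years. The difference was -0.28 ± 0.11 (SE, n = 22, limma p = 0.015, adjusted p = 0.579, exact permutation p = 0.0253), with -0.18 at 5 months and -0.39 at 2 years. The peptide carrier SLC15A2, named after its values were seen, was lower at 2 years, with a difference of -0.16 ± 0.08 (n = 22, limma p = 0.0419, adjusted p = 0.485), and 14 of 32 alternatives took its p to 0.05 or above.

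The 13 metal carriers had 1 member lower with alcohol and 1 higher at 2 years. SLC30A7, which loads zinc into the Golgi and was named after its values were seen, differed by -0.19 ± 0.09 with alcohol (n = 22, limma p = 0.0449, adjusted p = 0.590), with -0.19 at each age, and 16 of 31 alternatives took its p to 0.05 or above. SLC39A11, a zinc importer, was 0.16 ± 0.07 higher at 2 years (limma p = 0.0225, adjusted p = 0.409, exact permutation p = 0.0339), with 0.29 in FASD animals and 0.04 in controls. SLC30A3, which fills the synaptic vesicles of hippocampal mossy fibres with zinc, differed by -0.01 with alcohol (95% interval -0.16 to 0.13) and -0.02 with age (-0.16 to 0.13). SLC30A9, a zinc carrier of mitochondria, differed by -0.05 with alcohol (-0.18 to 0.08). The copper carriers SLC31A1 and SLC31A2 both had positive alcohol differences, of 0.15 and 0.14, with limma p values of 0.106 and 0.0825.

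None of the 16 nucleoside and nucleotide sugar carriers had an unadjusted p under 0.05 for alcohol, and 1 had for age. That carrier was SLC35F3, a putative thiamine carrier, at 0.15 ± 0.06 (limma p = 0.0231, adjusted p = 0.413, exact permutation p = 0.0208), with 0.12 in controls and 0.18 in FASD animals. SLC35B1, which exchanges ATP and ADP across the membrane of the endoplasmic reticulum, had 2 probe sets. In 1 of them the 2-year FASD animals, at 8.03 to 8.16, lay above all 5-month FASD animals, at 7.78 to 8.02, and in the other the ranges of 9.20 to 9.46 and 9.0 to 9.24 overlapped. Over both exposures the age differences were 0.10 and 0.04. The other symbols with 2 probe sets were SLC25A25, SLC48A1, SLC4A7 and SLC9A5, and neither probe set of these 5 symbols had an unadjusted p under 0.05 for alcohol or age. For the haem carrier SLC48A1 the 2 probe sets had alcohol differences of 0.10 and -0.08.

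Carriers of transmitters were few in the table. The 6 probe sets of the families SLC1 and SLC6 were SLC1A3, SLC1A4, SLC1A6, SLC6A15, SLC6A16 and SLC6A17. They were placed in this role by family number alone, so not each need carry a transmitter across the plasma membrane. None had an unadjusted p under 0.05 for alcohol or age, and their median alcohol difference was -0.06. SLC1A3, the glutamate carrier GLAST of astrocytes, was 12.03 to 12.37 (median 12.17) in 5-month controls and 12.05, 12.02, 12.0008, 11.82 and 12.15 in 5-month FASD animals, with a difference there of -0.18 ± 0.07 (limma p = 0.0215, exact permutation p = 0.0476). At 2 years the difference was -0.02 ± 0.07, and over both ages it was -0.10 (95% interval -0.20 to 0.01, n = 22, limma p = 0.0677). The interaction of 0.16 had a 95% interval of -0.05 to 0.37. Of 6 astrocyte markers 4 were measured. At 5 months the alcohol differences were -0.16 and -0.03 for 2 probe sets of GFAP, -0.12 for FGFR3, -0.11 for ALDH1L1 and 0.01 for S100B. Averaged over both ages none was above 0, and the lowest was -0.124, for GFAP. Their part in the difference of SLC1A3 was not tested. SLC17A8, a vesicular glutamate carrier of few neurons, differed by -0.01 with alcohol (-0.12 to 0.10). Its level was only 3.49 to 3.95 over all animals, a weak signal in which a difference may not show. The vesicular polyamine carrier SLC18B1 differed by -0.19, with -0.30 at 5 months (limma adjusted p = 0.932).

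Within each age, 9 carriers had an unadjusted p under 0.05 for alcohol at 5 months (6.25%, against 4.83% of all probe sets) and 9 at 2 years (6.25%, against 6.05%). At neither age was there a carrier whose FASD and control animals did not overlap, while 0.122% of all probe sets were higher and 0.321% lower without overlap at 5 months, and 0.2% and 0.113% at 2 years. The 5-month and 2-year differences had the same sign for 56.9% of carriers, against 57.5% of all probe sets. Across the 144 carriers the correlation of the differences at 5 months with those at 2 years was 0.17 by Pearson and 0.23 by Spearman, against 0.19 and 0.23 across all probe sets, as a description over genes, which are not independent replicates. For age, 8 carriers passed in controls (5.56%, against 5.55%) and 13 in FASD animals (9.03%, against 6.99%). In controls 0 carriers were higher or lower at 2 years with no overlap, against 0.122% and 0.313% of all probe sets. In FASD animals 0 were lower with no overlap, against 0.391%. Those higher with no overlap in FASD animals were 4, or 2.78% against 0.921% of all probe sets, and they were SLC12A5, SLC16A4, SLC35B1 and SLC5A11.

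**Figure D5:**
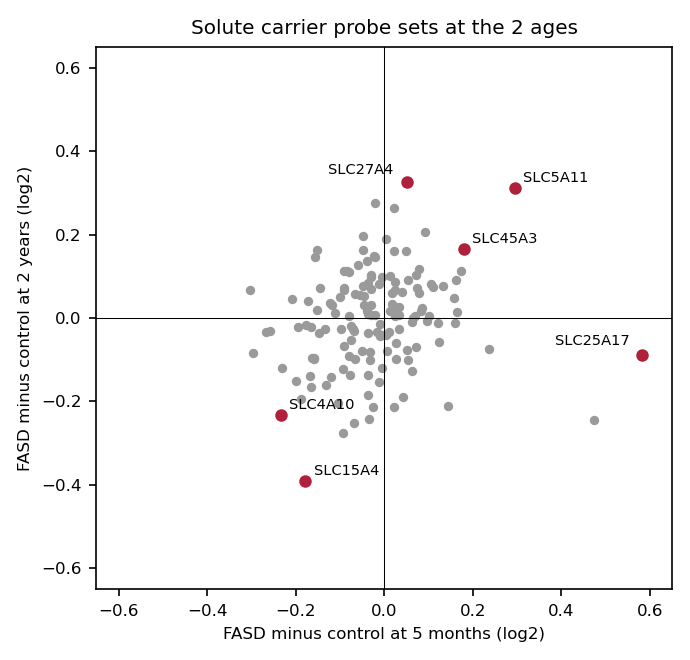
FASD minus control difference in log2 expression intensity at 5 months (horizontal axis) and at 2 years (vertical axis) for the 144 solute carrier probe sets, with 1 point per probe set. Red points are the named carriers SLC5A11, SLC45A3, SLC4A10, SLC15A4, SLC27A4 and SLC25A17; SLC25A17 lies far to the right at 0.58 and -0.09, and the points show no tight line (Pearson's r of 0.17).

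Genes that work beside the carriers were described from a list of 24, of which 11 were measured with 12 probe sets. With alcohol 0 were higher and 1 lower at an unadjusted p under 0.05, against 2.43% and 6.01% of all probe sets, and the gene was GAD1, which makes GABA, at -0.16 ± 0.07 (n = 22, limma p = 0.0316, adjusted p = 0.580). That value averages -0.34 ± 0.10 at 5 months and 0.02 ± 0.10 at 2 years, with an interaction of 0.36 ± 0.14 (n = 22, limma p = 0.0186, adjusted p = 0.9997). With age 4 were higher and 0 lower, against 4.68% and 4.89%. These were the glial potassium channel KCNJ10 at 0.23 ± 0.07 (n = 22, limma p = 0.0017, adjusted p = 0.187), glutamine synthetase GLUL at 0.09, the kinase STK39, which acts on chloride carriers, at 0.10, and the mitochondrial pore VDAC1 at 0.10. BSG and EMB, the chaperones that bring monocarboxylate carriers to the membrane, differed by -0.13 and -0.05 with age, with limma p values of 0.130 and 0.637, beside the difference of -0.53 in SLC16A1.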

How the data were processed

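Hippocampal RNA of 22 vervets was measured on rhesus macaque arrays, and 2 of 24 arrays, discarded by the authors, held no values. The authors summarised the probes by RMA (version not given in the sources used here), with background correction and quantile normalization, and deposited log2 intensities of annotated, detected probe sets. Weak or badly matched probes compress differences. No further scaling or filter was applied to the 11512 probe sets. The annotation gave 8730 of them 1 symbol, 88 several and 2694 none, and 2 probe sets with several symbols hold a solute carrier and were left out. Group means were fitted with limma 3.58.1 in R 4.3.3, with two-sided tests and Benjamini-Hochberg adjustment over all probe sets. Alcohol is FASD minus control averaged over ages, age is 2 years minus 5 months averaged over exposures, and the interaction is the FASD difference at 2 years minus that at 5 months. Exact permutation tests, two-sided, exchanged animals within age or within exposure. Figures used matplotlib 3.10.9 in Python 3.11.15. The steps were tested on simulated data. The number of arrays limits the precision. Named genes were the 10 carriers of lowest p for alcohol and for age, the 5 for the interaction, the highest probe set of each family with 5 or more, 25 known brain carriers where measured, and symbols whose probe sets disagreed; others are marked as chosen after their values were seen. The members and lists were chosen with earlier results of these data known. Alternatives were array weights, centring, quantile normalization, variances that follow intensity, the unmoderated analysis of variance of the methods, the replicate number taken as a block, probe sets above the median level, 1 probe set per symbol and each array left out in turn. Fits without the 3 arrays of lowest weight, or without the 2 whose age is in doubt, were chosen after seeing the data. The doubt on FASD animal 4 at 2 years came from its expression levels alone. A discarded array bears the number of FASD animal 2 at 5 months, which has values.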

Additional observations from a re-analysis of the deposited data

Results flagged for a closer look

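Among 168 groups of the 42 probe sets described, 24 single values lay far from the rest of their group by Dixon's criterion, which chance alone meets in about 1 of 20 groups. FASD animal 2 at 5 months held 7 of them, all the lowest of the group: SLC4A10 at 10.09, SLC27A2 at 3.48, the second probe set of SLC35B1 at 9.0, SLC7A1 at 11.75, SLC12A5 at 10.90, SLC25A4 at 10.80 and SLC37A3 at 7.07. FASD animal 2 at 2 years held 5, which were low for SLC4A10 (9.99), SLC30A9 (9.30) and SLC7A1 (12.01) and high for SLC30A3 (9.84) and SLC5A3 (7.98). Control animal 2 at 2 years held low values of SLC25A4 (10.84) and SLC37A3 (7.51). These 3 animals had the lowest array weights and the lowest NEUROD6 levels, while their levels of NRGN lay above its mean over all animals.

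Control animal 6 at 5 months held 4, with low values of SLC4A10 (10.44) and SLC25A27 (7.98) and high values of SLC5A3 (7.94) and SLC13A4 (10.19). It carries labels of both ages and had the highest FOLR1 level. SLC16A1 stood out in FASD animal 4 at 2 years (8.91), the animal with a SOX4 level like that of 5-month animals, and in control animal 4 at 5 months (9.0).

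The remaining values came from 4 animals: SLC15A4 was high in FASD animal 5 at 5 months (8.24), SLC25A17 was low in control animal 5 at 2 years (8.93), SLC30A3 was low in FASD animal 6 at 5 months (9.17), and the first probe set of SLC35B1 was low in control animal 1 at 5 months (7.81).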

How the results depend on the processing

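The alcohol count of 13 carriers at an unadjusted p under 0.05 became 24 with array weights, 5 of the 56 tested above the median level, and 9 to 25 when 1 array was left out, with 25 (9 higher, 16 lower) without control animal 2 at 2 years. The age count of 14 became 22 with array weights, 5 above the median level, 23 without the 3 arrays of lowest weight and 10 to 20 when 1 array was left out. The interaction count of 1 became 2 with the two-way analysis of variance, with centring, with quantile normalization and with the replicate block, 5 with array weights, 7 without the 3 arrays of lowest weight and 1 to 9 when 1 array was left out, with 9 without control animal 2 at 2 years, 3 or 4 without control animal 1, 4 or 5 or FASD animal 3 or 4 at 5 months or FASD animal 2 at 2 years, and 1 or 2 otherwise. The count of 0 after adjustment became 2 with array weights (SLC5A11 and SLC16A4, age), 1 without the 3 arrays of lowest weight (SLC5A11, age), 1 without the 2 arrays whose age is in doubt (SLC16A1, age) and 0 to 1 when 1 array was left out, with 1 without FASD animal 4 at 2 years. Leaving out FASD animal 4 at 2 years, doubted for its expression levels alone, favours an age difference. The causes of the changed counts were not tested, except that fewer probe sets were tested above the median level.

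Of 30 pairs of animals with the same replicate number, 13 had deviations correlated above 0.1 (range -0.33 to 0.39). Pairs with different numbers were not compared, so whether the number pairs the animals was not tested. With the number as a replicate block, 13 carriers passed for alcohol and 19 for age. Over 2795 values of the named carriers under alternatives, 0 reversed direction past the threshold, 2608 kept their side of it, 138 lost an unadjusted p under 0.05 and 49 gained one.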
